A study of Mus musculus with 6 samples.

Results

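Macrophage RNA in sorted cardiac cells was followed through 10 genes, Csf1r, Cx3cr1, Laptm5, Ctss, Cd68, Lyz2, Ptprc, C1qa, C1qb and Tyrobp, out of 18194 genes on the array. They were taken by name, and all 20 probe sets that the platform annotation ties to exactly 1 of these symbols were read, among 45101 probe sets in all. The cells were sorted out of left ventricles. The mice were Black Swiss males, 8 to 10 weeks old, of which 3 had transverse aortic constriction (TAC), a narrowing of the aorta that loads the left ventricle with pressure, and 3 a sham operation. Cells were isolated 1 week later. The 6 groups, with 1 array each, were Tie2cre traced fibroblasts after TAC and at sham, non-traced (here untraced) fibroblasts after TAC and at sham, and endothelial cells after TAC and at sham. Both kinds of fibroblast come from Tie2cre mice, and the labels name no genotype for the endothelial cells. The sources used here do not give the sorting gates, the reporter allele or any pooling of mice. No group has a replicate, so a difference between 2 arrays carries no error of its own. Tie2 is the protein of Tek, and a Cre under its promoter marks cells in which that promoter is or was active. In mice, Tie2-Cre is known to mark blood lineages as well as endothelium.

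Macrophages are phagocytes that live in every tissue, and the heart holds a resident population along with cells that arrive as blood monocytes. Csf1r is the receptor for the growth factors CSF1 and IL-34, on which macrophages depend for survival, and Cx3cr1 is the receptor for fractalkine, the product of Cx3cl1. Ptprc encodes CD45, a phosphatase on the surface of all leukocytes, and Tyrobp encodes the adaptor DAP12, which carries signals from myeloid receptors. Laptm5, Ctss (the protease cathepsin S) and Cd68 encode lysosomal proteins, Lyz2 encodes lysozyme, and C1qa and C1qb encode chains of the complement protein C1q, which macrophages secrete. In bulk RNA, fewer cells of a type and less RNA per cell cannot be told apart.

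The promoter windows of Cx3cr1, Laptm5 and C1qb are shown because these genes had the largest mean traced minus untraced differences of the 10, described further on. Each window is the 250 bases before the annotated start in RefSeq (GRCm38.p6), and 7 of the 10 genes had such an entry. The windows were searched on both strands for GAGGAA, a short core of the sites bound by PU.1, the myeloid transcription factor made from Spi1, and matches are in capitals. The Cx3cr1 window (chr9:120068297-120068546, minus strand) held no match. The Laptm5 window (chr4:130913066-130913315, plus strand), which lies inside the annotated span of the gene, held 1 match on the opposite strand, beginning 38 bases before the start. The C1qb window (chr4:136886201-136886450, minus strand) held 1 match on its own strand, beginning 30 bases before the start.
Cx3cr1: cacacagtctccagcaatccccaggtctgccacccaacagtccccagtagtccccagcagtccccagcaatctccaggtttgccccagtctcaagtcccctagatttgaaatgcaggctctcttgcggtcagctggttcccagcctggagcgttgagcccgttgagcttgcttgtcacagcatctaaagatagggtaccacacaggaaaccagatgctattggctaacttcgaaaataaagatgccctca
Laptm5: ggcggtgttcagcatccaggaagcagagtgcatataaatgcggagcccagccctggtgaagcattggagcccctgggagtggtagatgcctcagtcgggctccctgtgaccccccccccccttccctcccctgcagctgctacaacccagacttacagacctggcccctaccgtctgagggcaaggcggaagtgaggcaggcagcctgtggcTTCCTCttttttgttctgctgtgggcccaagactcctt
C1qb: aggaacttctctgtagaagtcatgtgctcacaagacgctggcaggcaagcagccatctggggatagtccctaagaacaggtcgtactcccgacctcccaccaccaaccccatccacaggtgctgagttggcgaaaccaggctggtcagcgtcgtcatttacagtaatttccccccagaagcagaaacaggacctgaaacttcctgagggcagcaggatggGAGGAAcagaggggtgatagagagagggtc
Of the 7 genes with a window, 5 held the motif in at least 1 window, and Cx3cr1 and Lyz2 did not. Across all 32851 promoter windows of this length 23.3% held it, so a match is common and is a description only.

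Endothelial markers separated the endothelial from the fibroblast arrays, while fibroblast markers were also high on the endothelial TAC array. Over the 8 endothelial markers the median level was 13.17 and 13.52 (log2 intensity) on the TAC and sham endothelial arrays and 6.56 to 7.94 on the 4 fibroblast arrays. Over the 8 fibroblast markers the median was 13.36 to 13.66 on the fibroblast arrays, and it was 11.97 on the endothelial TAC array against 8.10 on the endothelial sham array. The untraced TAC array had lower 18S ribosomal RNA signals (11.15 to 13.67) than the other arrays (13.73 to 14.76). Its 3′ minus 5′ Gapdh signal, a measure of RNA integrity, was 2.10 against 1.12 to 1.36 elsewhere. The same measure for Actb did not set this array apart, at -0.14 against -0.32 to -0.11 elsewhere. Array medians lay between 6.74 and 6.85.

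The 10 genes were dim. Of the 20 probe sets 9 never rose above the median of their array, 8 did so on some arrays and 3 on all 6 arrays (1 each for Laptm5, Lyz2 and C1qb). Ptprc, the gene that defines leukocytes, had both of its probe sets below the median on all 6 arrays, at 4.78 to 5.70 for the brighter (percentiles 21.8 to 32.02 of the array) and 3.27 to 5.08 for the other. Lyz2 stood between the 63.0 and 77.2 percentiles of its arrays, Tyrobp between 40.5 and 56.9, and C1qa between 32.6 and 52.1. Cx3cr1 reached the highest percentile of the 10 genes, 84.8, on the traced sham array. By array, 6 and 7 of the 10 genes lay above the median on the traced TAC and traced sham arrays. On both untraced arrays 5 did, and on the endothelial TAC and sham arrays 8 and 3.

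**Figure D1:**
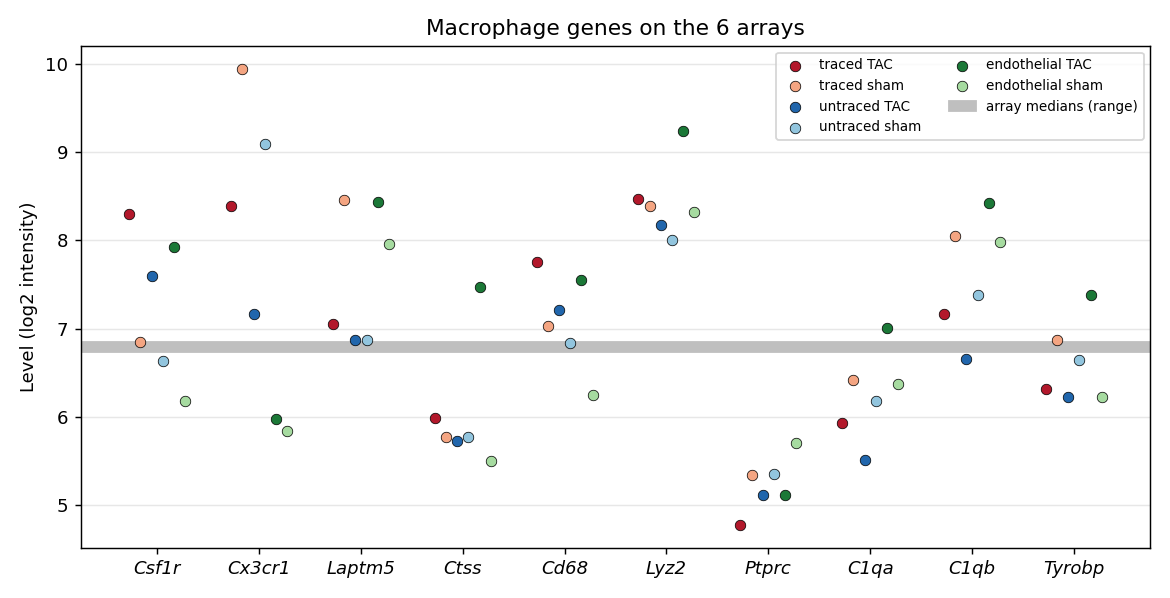
Level of each macrophage gene (log2 intensity, vertical axis) on each of the 6 arrays, 1 point per array, using the brightest probe set of the gene. The grey band is the range of array medians, 6.74 to 6.85, and Ptprc lies wholly below it, while Cx3cr1 spans 5.84 on the endothelial sham array to 9.94 on the traced sham array.

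The order of the arrays was not shared by the 10 genes. The endothelial TAC array was the highest for 5 of them (Ctss, Lyz2, C1qa, C1qb and Tyrobp), the traced TAC array for Csf1r and Cd68, the traced sham array for Cx3cr1 and Laptm5, and the endothelial sham array for Ptprc. The lowest level was on the endothelial sham array for 4 genes and on the untraced TAC array for 4. Cx3cr1 was the 1 gene whose fibroblast and endothelial levels did not overlap. With 1 array a group, the spread behind any neighbouring positions in these orders is not known.

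Traced fibroblasts had somewhat higher levels of most macrophage genes than untraced fibroblasts of the same surgery. The traced array was higher for 9 of the 10 genes after TAC and for 8 of 10 at sham, with median log2 differences of 0.36 and 0.23, beside -0.08 and -0.03 over all 18194 genes. The 7 genes detected on the fibroblast arrays were all above 0 at both surgeries, with medians of 0.50 and 0.38, beside -0.07 and -0.11 over 11623 detected genes, of which 38.7% and 31.1% were above 0. Tyrobp counts as detected through the traced sham array alone, and Laptm5 after TAC turned to -0.20 with the mean of its probe sets. The comparison after TAC uses the untraced TAC array, with its low 18S and higher Gapdh 3′ minus 5′ signal, and their part in it was not tested. Most of the differences were small: 1 of the 7 genes was at least 2-fold higher after TAC (Cx3cr1), where 0.361% of all detected genes were. At sham 1 of the 7 was (Laptm5), where 0.37% of all detected genes were. None of the 7 was at least 2-fold lower, against 0.112% of all detected genes after TAC and 0.404% at sham. These differences were not tested.

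Cx3cr1 stood at 8.39 on the traced and 7.16 on the untraced array after TAC, and at 9.94 on the traced and 9.09 on the untraced array at sham. The traced array was thus 2.33-fold higher after TAC and 1.80-fold higher at sham. Laptm5 stood at 7.05 and 6.87 on the traced and untraced arrays after TAC, and at 8.46 and 6.88 at sham. Its difference, 2.99-fold at sham and 1.13-fold after TAC, therefore came from a single high array, traced sham. C1qb was higher on the traced array by 0.50 after TAC (7.16 against 6.66) and by 0.66 at sham (8.04 against 7.38). Csf1r was 0.70 higher after TAC and 0.22 higher at sham, and Cd68 was 0.54 and 0.19 higher. Lyz2 was 0.29 and 0.38 higher and Tyrobp 0.09 and 0.23 higher.

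Ctss, Ptprc and C1qa were not detected on the fibroblast arrays. Their traced minus untraced differences after TAC and at sham were 0.26 and 0.00 for Ctss, -0.34 and -0.01 for Ptprc, and 0.43 and 0.24 for C1qa. Ptprc, whose RNA every leukocyte carries, was below 0 after TAC with both of its probe sets, while at sham the other probe set was at 0.20.

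**Figure D2:**
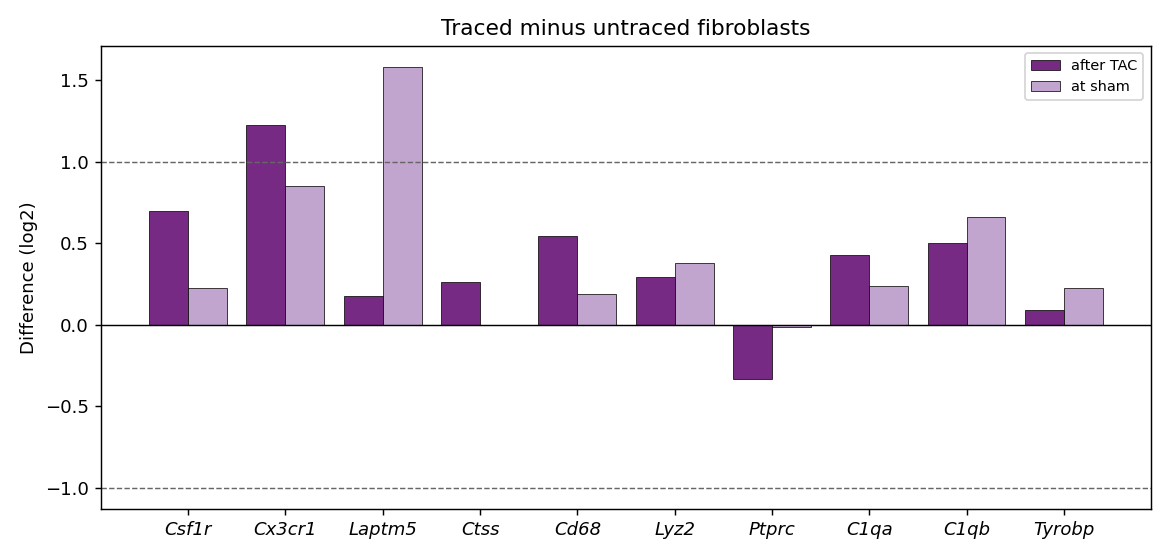
Difference in level between traced and untraced fibroblasts (log2, vertical axis) after TAC and at sham for each macrophage gene, with dashed lines at 2-fold. Cx3cr1 after TAC (1.22) and Laptm5 at sham (1.58) pass the upper line, and no gene passes the lower one.

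The different probe sets of a gene did not all show these differences. The second Cx3cr1 probe set was dim (3.78 to 4.34, at most at percentile 15.1 of an array) and differed by -0.19 after TAC and -0.09 at sham between traced and untraced fibroblasts. All 5 Laptm5 probe sets were higher on the traced sham array than on the untraced sham array, by 0.31 to 1.58. After TAC 4 of those 5 were lower on the traced array. The 3 C1qb probe sets were 0.20 to 0.50 higher on the traced array after TAC and 0.37 to 0.66 higher at sham. The brightest probe sets of Laptm5 and C1qb carry a suffix that marks possible cross-hybridisation. With the probe sets that lack such a suffix the Laptm5 difference at sham was 0.34. With the mean of all probe sets it was 0.71, that of Cx3cr1 after TAC was 0.52, and neither gene then reached 2-fold.

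**Figure D3:**
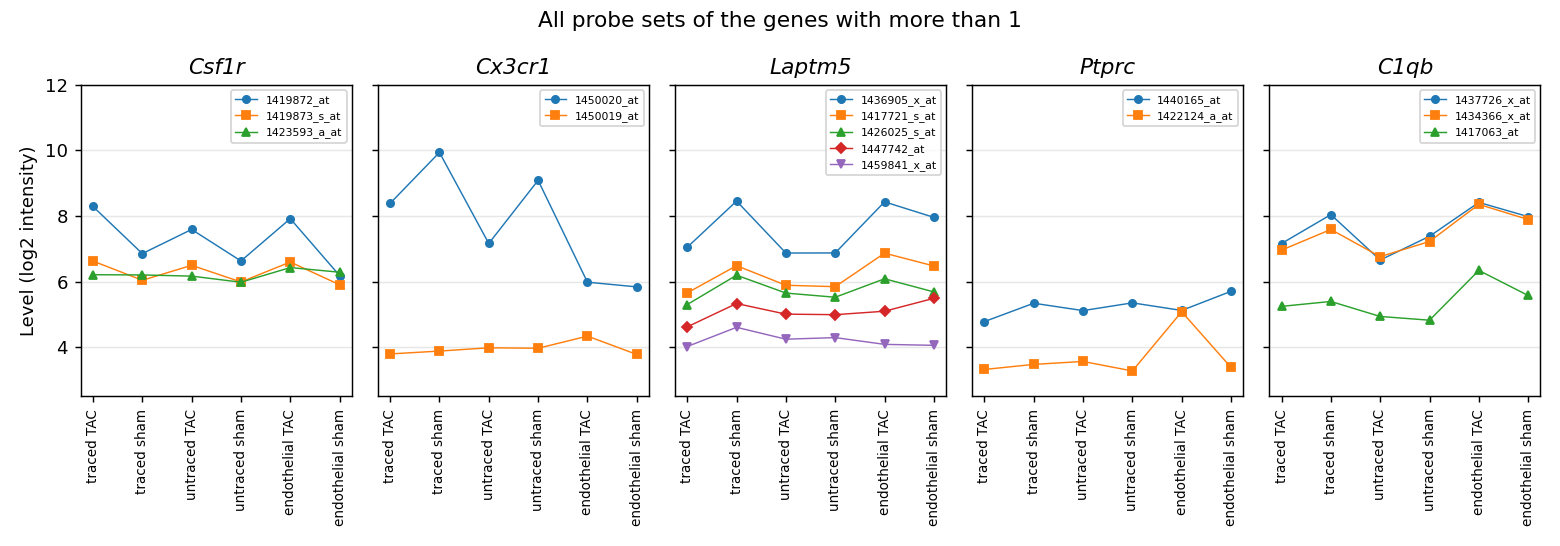
Level (log2 intensity, vertical axis) of every probe set of the 5 genes with more than 1, across the 6 arrays, where lines join the values of a probe set and stand for no order. The Laptm5 and C1qb probe sets run broadly alike, while 1 probe set of Cx3cr1 stays between 3.78 and 4.34 and that of Ptprc with the lower mean reaches 5.08 on the endothelial TAC array.

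Other leukocyte genes gave a mixed picture of the lineage difference. Of 18 pan-leukocyte genes, Laptm5 and Ptprc included, 3 were detected on the fibroblast arrays. Igsf6, an immunoglobulin family gene of myeloid cells, was 1.08 higher on the traced array after TAC and 1.14 at sham, while Evi2a was 0.58 and 0.53 lower. Of 10 antigen presentation and dendritic genes 4 were detected and all 4 were above 0 at both surgeries, led by Cd74, the invariant chain of MHC class II (0.37 and 0.50), H2-Aa (0.34 and 0.48) and H2-Ab1 (0.05 and 0.52). Of 13 Fc receptor and phagocyte genes measured 4 were detected, with medians of 0.09 after TAC and -0.13 at sham, and Fcer1g, the Fc receptor gamma chain, was 0.36 and 0.26 higher. Spi1 itself was not detected there and was 0.39 and 0.30 higher. Of 12 resident macrophage genes 2 were detected, the phagocytic receptor gene Mertk (-0.16 and -0.58) and F13a1 (-0.01 and 0.94). Among the fibroblast arrays, Igsf6 passed the array median only on the traced arrays, and Fcer1g and F13a1 only on the traced sham array. They count as detected only through arrays where they are high, so nothing is read from their detection. The defining resident markers Adgre1, Mrc1, Cd163, Lyve1, Folr2 and Timd4 were not detected on the fibroblast arrays. Of 9 monocyte genes measured 5 were detected, with medians of -0.11 and -0.33.

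Markers of other blood cells were mostly below detection on the fibroblast arrays: 0 of 6 B cell genes, 0 of 6 mast cell genes, 0 of 4 erythroid genes, 1 of 9 neutrophil genes, 2 of 11 T and NK cell genes and 3 of 5 platelet genes were detected there. The T cell gene Cd28 was lower on the traced array by 1.21 after TAC and by 1.91 at sham, and the neutrophil gene S100a9 by 0.55 and 0.74. Cd8a, the other T and NK cell gene detected, was 0.01 and 0.77 higher. Among the fibroblast arrays, Cd28 passed the array median on untraced TAC alone, S100a9 on untraced sham alone and Cd8a on traced sham alone. Each is the fibroblast array where the gene is highest. The platelet factor gene Pf4 was 0.48 and 0.41 higher on the traced array. The other platelet genes detected were mixed, with Itga2b at 0.20 and -0.13 and Gp9 at -0.09 and 0.57. Among the fibroblast arrays, Gp9 too passed the array median on traced sham alone, where it is highest. The 7 endothelial markers detected there had medians of -0.44 after TAC and -0.15 at sham. The medians were -0.12 and 0.04 for 8 fibroblast markers, 0.14 and 0.03 for 4 cardiomyocyte genes and 0.05 and -0.29 for 6 mural genes. Their part in the macrophage gene differences was not tested.

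In fibroblasts, TAC and sham differed in both directions among the macrophage genes. Csf1r was higher after TAC and Cx3cr1 was lower in both fibroblast populations, while both C1q genes and Tyrobp were lower and Cd68 was higher by less than 2-fold. In traced fibroblasts 1 of the 7 detected genes was at least 2-fold higher (Csf1r), where 6.19% of all detected genes were, and 2 were at least 2-fold lower (Cx3cr1 and Laptm5), where 2.66% were. In untraced fibroblasts 0 of 7 were at least 2-fold higher, where 4.98% of detected genes were, and 1 was at least 2-fold lower (Cx3cr1), where 2.95% were. The medians of the 7 genes were -0.56 in traced and 0.00 in untraced fibroblasts, beside 0.08 and 0.02 over all detected genes. The traced median is the value of Tyrobp, which counts as detected through the traced sham array alone, where it is high. Without the filter, the medians of all 10 genes were -0.52 and -0.14, beside -0.03 and 0.03 over all 18194 genes. Of all 10 genes, 4 and 3 were above 0, where 59.3% and 52.0% of the 11623 detected genes were. These counts are not limited to detected genes, so the bases differ. The traced and untraced arrays of 1 surgery may come from the same mice.

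Csf1r stood at 8.29 after TAC and 6.85 at sham in traced fibroblasts, a 2.71-fold difference, and at 7.59 and 6.63 in untraced fibroblasts, 1.95-fold. This rests on 1 of its 3 probe sets. The others differed by 0.59 and 0.01 in traced and by 0.51 and 0.19 in untraced fibroblasts, and neither lay above the median of any array. With the mean of its probe sets Csf1r was 0.68 higher after TAC in traced fibroblasts.

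Cx3cr1 stood at 8.39 after TAC and 9.94 at sham in traced fibroblasts, 2.94-fold lower after TAC, and at 7.16 and 9.09 in untraced fibroblasts, 3.802-fold lower. Both TAC levels lay below both sham levels. The mean of its probe sets gave -0.82 and -0.96, under 2-fold in both. Laptm5 was 1.41 lower after TAC in traced fibroblasts. In untraced fibroblasts both arrays had the low level, 6.87 after TAC and 6.88 at sham. The untraced TAC array, which enters the second comparison, is the one with low 18S and a higher Gapdh 3′ minus 5′ signal.

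The complement genes were lower after TAC in both populations with their brightest probe sets. C1qb was 0.88 lower after TAC in traced and 0.72 lower in untraced fibroblasts. C1qa was 0.48 and 0.67 lower, and C1qc, their neighbour on the chromosome and the gene of the remaining C1q chain, was 0.67 and 0.66 lower, although C1qa and C1qc were not detected on the fibroblast arrays. The C1qb probe set without a cross-hybridisation suffix gave -0.15 in traced and 0.11 in untraced fibroblasts, so the direction in untraced fibroblasts turned with the probe set. Tyrobp was 0.56 lower in traced and 0.42 lower in untraced fibroblasts, Cd68 was 0.72 and 0.37 higher, and Lyz2 was 0.09 and 0.17 higher, where quantile normalization turned the first Lyz2 value to -0.046. The undetected Ctss differed by 0.22 and -0.05 and Ptprc by -0.56 and -0.24.

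In endothelial cells most of the macrophage genes were higher on the TAC array. Of the 10 genes 9 were above 0, and so were 18 of the 20 probe sets. Of the 11157 detected genes 63.1% were above 0. The median difference of the 10 was 0.77, beside 0.03 over all 18194 genes. At least 2-fold higher were 4 of the 10 (Csf1r, Ctss, Cd68 and Tyrobp), where 10.9% of the 11157 detected genes were, and 0 were at least 2-fold lower, where 1.83% were. The counts are over all 10 genes and the shares over detected genes alone, so the bases differ and nothing is read from these comparisons. Those 4 genes and C1qa, 5 in all, passed the array median on the endothelial TAC array and not on the sham array. They count as detected only through the array where they are high, so nothing is read from a count over the 8 detected genes. Laptm5, Lyz2 and C1qb passed it on both arrays.

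Ctss stood at 7.47 on the endothelial TAC array against 5.51 on the sham array, 3.90-fold higher, and the TAC array was the 1 array on which it passed the median. Csf1r stood at 7.92 against 6.18, 3.33-fold higher, with 0.69 and 0.14 for its other probe sets. Cd68 stood at 7.55 against 6.25, 2.47-fold higher, and Tyrobp at 7.38 against 6.23, 2.22-fold higher. Lyz2 was 0.92 higher (9.24 against 8.32), C1qa 0.63, Laptm5 0.47 and C1qb 0.43. The Laptm5 probe set without a cross-hybridisation suffix turned the direction (-0.39). Cx3cr1, not detected on these arrays, differed by 0.14.

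Ptprc split by probe set: the brighter one was 0.58 lower on the endothelial TAC array, and the other stood at 5.08 there against 3.27 to 3.57 on the remaining 5 arrays, 1.70 higher than on the endothelial sham array. Both stayed below the array median.

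**Figure D4:**
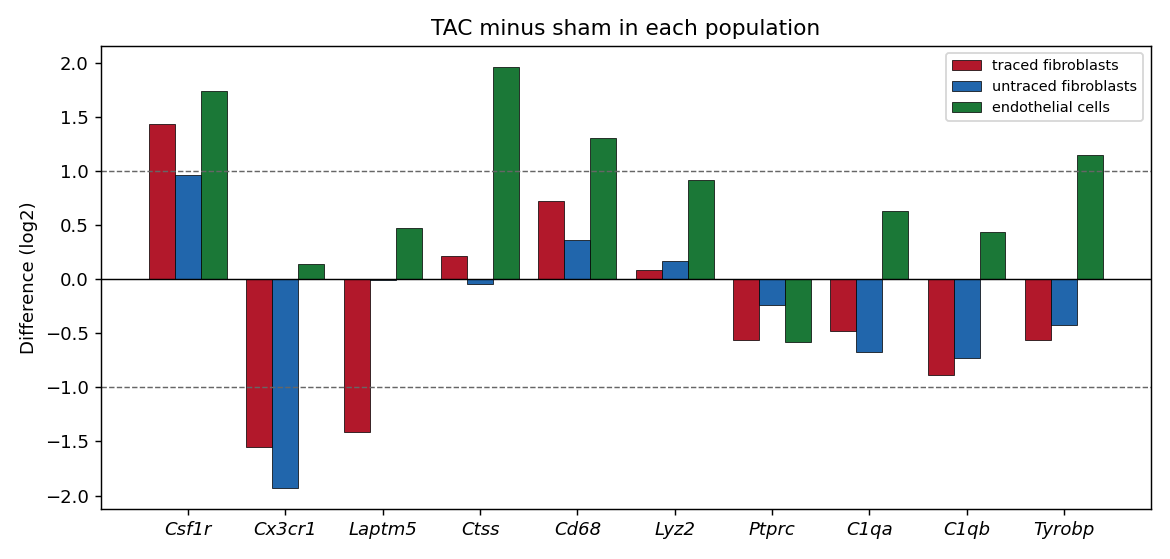
TAC minus sham difference in level (log2, vertical axis) for each macrophage gene in traced fibroblasts, untraced fibroblasts and endothelial cells, with dashed lines at 2-fold. Csf1r is above 0 in all 3 populations, Cx3cr1 is more than 2-fold lower in both fibroblast populations, and Ctss is 1.96 higher in endothelial cells.

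Markers of other cells moved along with the endothelial difference. All 8 fibroblast markers were at least 2-fold higher on the endothelial TAC array (median 3.63), with Col1a1 at 13.01 against 8.58, and their summed intensity was 40074 against 3039. On the fibroblast arrays this sum was 90004 to 95517. Of 8 cardiomyocyte genes, 6 detected, 4 were at least 2-fold lower on the TAC array, with a summed intensity of 4339 against 8279 over the 8 genes. The 8 endothelial markers differed by -0.45 to -0.02. The part of these in the macrophage gene differences was not tested.

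Other leukocyte genes were higher in part on the endothelial TAC array. Of 4 detected pan-leukocyte genes 1 was at least 2-fold higher, Hcls1, a cytoskeletal adaptor of blood cells (1.20), beside Lcp1, an actin bundling protein (0.78), and Igsf6 (-0.63). Of 5 detected Fc receptor and phagocyte genes 0 were 2-fold higher, with Tlr2 at 0.60, Spi1 at 0.24 and Fcer1g at 0.22. Of 2 detected genes in each list, the resident macrophage genes Lyve1 and Mertk were at 0.36 and -0.25, and the monocyte genes Cd14 and Trem2 at 0.74 and -0.34. The 4 detected antigen presentation genes had a median of -0.24, with H2-Ab1 at 0.68, Cd74 at -0.45 and H2-Aa at -0.33. The platelet chemokine gene Ppbp was 1.75 higher (8.24 against 6.49). Of the endothelial arrays, Spi1, Cd14 and Ppbp passed the median on the TAC array alone, where they are high.

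Several ligand genes of macrophage receptors were higher after TAC in fibroblasts. In traced fibroblasts 4 of 7 detected ligand and chemoattractant genes were at least 2-fold higher and in untraced fibroblasts 3 of 7, where 6.19% and 4.98% of all detected genes were. Il34, in both counts, is detected only through the fibroblast TAC arrays, where it is high, so nothing is read from these counts. Il34, a ligand of the Csf1r protein, was 2.07 and 1.38 higher in traced and untraced fibroblasts, while Csf1, the other ligand, was 0.00 and -0.15. Cx3cl1, whose product binds the Cx3cr1 receptor, was 1.33 and 1.17 higher, the opposite direction to Cx3cr1 itself. Cd200, which restrains myeloid cells, was 1.55 and 1.30 higher, Tgfb1 1.23 and 0.35 higher, and the monocyte chemoattractant gene Ccl2 0.90 and 0.77 higher. Ccl7 was 0.59 and 0.36 lower. In endothelial cells Ccl2 (1.43) and Ccl7 (1.30) were at least 2-fold higher, where 10.9% of detected genes were, and Csf1 (-0.59), Cd200 (-0.34), Cx3cl1 (-0.25) and Tgfb1 (-0.01) were not. Ccl7 is detected there only through the TAC array, where it is high, so nothing is read from this count either. Csf2 and Ccl12 were not detected on any array.

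Between traced and untraced fibroblasts none of the 7 ligand genes differed 2-fold at either surgery (-0.49 to 0.49). Among the other lists in fibroblasts after TAC, the 3 detected pan-leukocyte genes, Laptm5 among them, were all below 0 in traced fibroblasts. In untraced fibroblasts Igsf6 (-0.57) and Evi2a (-0.30) were below 0. Laptm5 was at -0.003 there and turned to 0.050 with quantile normalization. Of all detected genes 59.3% and 52.0% were above 0 in traced and untraced fibroblasts. H2-Aa was at least 2-fold lower in both (-1.21 in traced and -1.08 in untraced). Cd74 was 1.00 and 0.86 lower. The monocyte gene Plac8 was 1.44 and 1.06 higher, Mertk was 1.13 and 0.71 higher, Aif1 was 0.39 and 1.12 lower, and Gpnmb was 0.42 and 1.14 lower. Cd28 was 1.18 and 0.49 higher, Cd8a was at -0.63 and 0.13, and S100a9 was at -0.72 and -0.91. Among the fibroblast arrays, Plac8 passed the array median on the TAC arrays alone and H2-Aa on the sham arrays alone. Cd28 did so on untraced TAC alone, Cd8a on traced sham alone and S100a9 on untraced sham alone. These genes count as detected only through arrays where they are high. Beside these genes, 7 endothelial markers had medians of -0.88 and -0.61 and 6 mural markers of -1.23 and -1.60. The part of those cells in the macrophage gene differences was not tested.

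Between fibroblasts and endothelial cells, 1 of the 9 macrophage genes tested passed the test, a share near that of all genes. Cx3cr1 averaged 8.65 over the 4 fibroblast arrays and 5.91 over both endothelial arrays, so fibroblasts were 2.73 higher (SE 0.615, limma adjusted p = 0.0469), from 2 values in each cell type, 1 for each surgery. It entered the test through the fibroblast arrays, where it is high, and its call was lost under 9 of 15 alternatives, with adjusted p between 0.00923 and 0.16 over all fits. The 1 call among 9 genes is 11.1%, where 11.5% of all 12257 genes were called higher in fibroblasts, so it is no result about the macrophage genes. By limma 0 were called higher in endothelial cells, where 6.5% of all genes were, and 0 reached an unadjusted p under 0.05 in that direction. The spread in this test is the difference between the surgeries.

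Laptm5 and C1qb differed by -0.88 and -0.89 (limma adjusted p = 0.156 and 0.168), in favour of endothelial cells, as did C1qa (-0.68), Ctss (-0.67), Lyz2 (-0.52) and Tyrobp (-0.29). Cd68 (0.31) and Csf1r (0.29) lay on the fibroblast side, and the limma adjusted p of these 6 lay between 0.245 and 0.803. The median of the 9 was -0.52, beside 0.22 over all detected genes. Ctss and C1qa entered the test only through the endothelial TAC array, where they are high, so nothing is read from this median. Without the traced sham array Laptm5 was called higher in endothelial cells (-1.28, limma adjusted p = 0.0368). With the endothelial sham array left out, Ctss differed by -1.65, but that fit sets fibroblasts against the very array through which Ctss entered. The sign of Ctss turned without the endothelial TAC array (0.31).

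Other leukocyte genes were called in both directions. Lcp1, Hcls1, Lyve1, Ppbp and Alas2 entered the test only through the endothelial arrays, and Evi2a, Lgals3, Gpnmb and Cd28 only through the fibroblast arrays, in each case the arrays where they are high. Of 5 pan-leukocyte genes tested 2 were called higher in endothelial cells, Lcp1 (-3.97, limma adjusted p = 0.00726) and Hcls1 (-3.28, limma adjusted p = 0.0171), and Evi2a was called higher in fibroblasts (2.04). Of 4 antigen presentation genes 2 were higher in endothelial cells, Cd74 (-1.82) and H2-Ab1 (-1.86), and of 3 resident macrophage genes 1 was, Lyve1 (-1.28), which lymphatic endothelium also expresses. Of 5 monocyte genes 2 were higher in fibroblasts, Lgals3 (3.05) and Gpnmb (3.34), and of 7 ligand genes Ccl2 (3.26) and Ccl7 (5.06) were, while Tgfb1 (-1.49) was higher in endothelial cells. Of 6 Fc receptor and phagocyte genes limma called 0, and 0 had an unadjusted p under 0.05. Called in the remaining blood cell lists were Ppbp (-2.87) among 4 platelet genes, Alas2 (-1.93) as the 1 erythroid gene tested, and Cd28 (1.92) among 2 T and NK cell genes. The 1 neutrophil gene tested, S100a9, was not called (-0.53).

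Over the 6 arrays, the mean profile of the 9 detected macrophage genes, each centred, was highest on the endothelial TAC array (0.53) and lowest on the endothelial sham array (-0.44). Ctss and C1qa are among the 9 only through the endothelial TAC array, where they are high, so nothing is read from that peak. The correlations given here rest on the same profile and carry the same limit. It was 0.08 and 0.35 on the traced TAC and sham arrays and -0.39 and -0.13 on the untraced ones. Tyrobp followed this mean most closely (Pearson r = 0.88 over 6 arrays), then Ctss (0.75) and Lyz2 (0.74), and Cx3cr1 the least among the 9 (0.23). Each of the 9 is part of the mean, which raises its own r, so these values are not comparable with those of other genes. Among 4982 other genes with enough spread, the most alike was Lyz1 (0.90), the neighbouring lysozyme gene, whose close likeness to Lyz2 means that probes could share signal. After it came Dctpp1 (0.81), Npnt, Enho, Sbno2, Phospho2, Slco2a1 and Itga2 (0.80 to 0.74). These values describe 6 arrays that share a normalization and, within a surgery, perhaps mice.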

How the data were processed

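RNA of sorted left ventricular cells was measured on 6 Affymetrix mouse arrays, 1 per group, and replicates were not available for any group. The authors deposited 1 intensity per probe set, made with RMA per the submitters' processing notes, and the range of 3.82 to 37205 shows a linear scale. Its version is not given in the sources used. Log2 was taken with no further normalization. RMA compresses differences between dim signals and carries no detection calls.

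Gene symbols are those of the platform annotation, and 99.4% of probe sets with 1 symbol were matched to current names by gene identifier. A gene was represented by its probe set with the highest mean, and counted as detected when above the array median on at least 1 array compared. That left 11623 genes over the fibroblast arrays, 11157 over the endothelial arrays and 12257 over all 6 arrays.

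The cell type test was run in R 4.3.3 with limma 3.58.1 on all detected genes, after averaging traced and untraced arrays of 1 surgery. That left 2 values per cell type and 2 residual degrees of freedom, and nothing says that these samples are independent animals, so p-values measure only the spread between them. A call needed a Benjamini-Hochberg adjusted p under 0.05 and a 2-fold difference. The fit was checked on simulated data. Other comparisons set 1 array against 1, with no test and with 2-fold as the threshold. The number of arrays limits the precision.

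The text names the 10 macrophage genes with all probe sets, the ligand genes, at most 3 genes of each other list per comparison, and the 8 genes most alike over the arrays. The members and the lists were chosen with earlier results of these data known. Other probe set rules, filters, a normalization, a pseudocount and fits without single arrays were tried as alternatives.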

Additional observations from a re-analysis of the deposited data

Results flagged for a closer look

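In 4 genes, 6 pairs of TAC minus sham differences had opposite signs in 2 populations, with at least 1 of the values 2-fold or more, and none of these differences between populations was tested. Cx3cr1 was at -1.55 in traced and -1.93 in untraced fibroblasts against 0.14 in endothelial cells, where it was not detected. Laptm5 was at -1.41 in traced fibroblasts against 0.47 in endothelial cells. Ctss was at -0.047 in untraced fibroblasts, where it was not detected, against 1.96 in endothelial cells. Tyrobp was at -0.56 in traced and -0.42 in untraced fibroblasts against 1.15 in endothelial cells.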

How the results depend on the processing

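Quantile normalization changed no call among the macrophage gene results, and turned the sign of Lyz2 in traced fibroblasts (TAC minus sham, -0.046), of Laptm5 in untraced fibroblasts and of the median there (0.050 for both). The surgery as a block and the traced arrays alone, which bear on fibroblasts minus endothelial cells, changed no call or direction. With the mean of all probe sets of a gene, 0 genes passed 2-fold between traced and untraced fibroblasts after TAC or at sham, 0 were 2-fold higher or lower after TAC in traced fibroblasts, 0 were 2-fold lower in untraced fibroblasts, and limma called 0 higher in fibroblasts than in endothelial cells. Without cross-hybridising probe sets 0 genes were 2-fold higher on the traced sham array, and after TAC in traced fibroblasts 1 gene was 2-fold lower and the median was 0.087. An upper quartile filter left few of the genes. It gave medians of 1.22 (traced minus untraced after TAC), -1.55 and -1.93 (TAC minus sham in traced and untraced fibroblasts) and 1.11 (fibroblasts minus endothelial cells). Under it 0 genes were 2-fold higher on the traced sham array, 0 were higher and 1 lower after TAC in traced fibroblasts, 0 were higher in endothelial cells, and limma called 0 in fibroblasts. The limma call in fibroblasts was also 0 with no filter, a pseudocount of 32, or the untraced arrays alone, and the untraced arrays alone gave 1 call (Laptm5) on the endothelial side. Leaving out each array in turn gave 0 to 1 calls on either side and a median of -0.98 to 0.29. Without an endothelial array the 1 value left for that cell type was assumed to vary as the fibroblast values do. Over the same fits the difference ranged from -0.58 to 1.16 for Csf1r, -1.65 to 0.31 for Ctss, -0.34 to 0.96 for Cd68 and -0.86 to 0.29 for Tyrobp, and their signs turned only without an endothelial array. The causes were not tested beyond the smaller number of genes under the filter. No paired analysis was possible because all 6 groups carry the same single replicate number, apart from the surgery block above, which pairs the cell types within a surgery. With 1 array a group and most of the genes near or below the array median, small differences could not be separated from array noise.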
